A study of Mus musculus with 12 samples.

Results

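Lymph node cells without functional protein kinase D2 (PKD2, encoded by Prkd2) were compared with wild-type cells before any antigen was added. Members are the arrays titled as unstimulated: 3 of PKD2-null and 3 of wild-type cells, 6 of the 12 arrays of the study. All mice carried the P14 T cell receptor transgene, whose product recognises the viral peptide gp33-41 on MHC class I. Cell suspensions of whole lymph nodes were kept in culture for 4 h without peptide, and RNA was hybridised to Affymetrix arrays, 1 array for each mouse. The other 6 arrays held cells of the same mice kept for 4 h with peptide at 62.5 ng/ml, and they are used here only to set values side by side and to share the estimate of the spread. Cells were not sorted, per the labels' protocols, so T cells, B cells and any attached tissue were measured together, and neither the sex nor the age of the mice nor the construction of the null allele is given in the sources used here.

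Protein kinase D enzymes are serine/threonine kinases that bind diacylglycerol, and in T cells PKD2 is the main member of the family. It is activated downstream of the antigen receptor by phospholipase C and protein kinase C. Cells that have not met antigen therefore show the state in which PKD2-null T cells enter a response, together with any difference in the make-up of the lymph node. Values are log2 signals, so a difference of 1 is a doubling, and differences are null minus wild type, each given with its standard error (SE) from limma. A probe set was called at an adjusted p under 0.05 (limma, Benjamini-Hochberg over 45037 probe sets).

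Several arrays stood apart in ways that bear on the comparison. Wild-type replicate 2 and null replicate 3 carried Y-linked transcripts: Eif2s3y was at 9.21 and 9.42 there and between 2.99 and 3.18 on the other arrays. Xist, the RNA of the inactive X chromosome, was at 5.33 and 5.57 on those arrays and between 11.84 and 12.17 on the others, so each genotype held 1 array of this kind. Wild-type replicate 3 had the highest level of salivary gland transcripts, and null replicate 2 the highest level of B cell markers. The actin 3' to 5' signal difference, a measure of RNA integrity, ran from 0.252 to 0.296 in wild type and from 0.214 to 0.356 in null arrays, which overlap. Array medians were between 4.67 and 4.72, and the lymphocyte identity of the samples was plain in T cell transcripts such as Cd3d (12.80 to 13.16) and Cd8b1 (11.57 to 12.37). Replicates are separate mice, and their number limits the precision.

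Few transcripts differed between the genotypes before antigen. Of 45037 probe sets 17 were called (0.0377%), 7 of them higher in null cells (0.0155%) and 10 lower (0.0222%), while 8.91% had an unadjusted p under 0.05 (3.79% on the lower side). Of all probe sets 7.39% had the 3 null values above the 3 wild-type values. These 17 belong to 12 genes and 1 probe set that matches several genes. Taken by the probe set with the highest mean, which represents each gene in the lists below, 8 of 18193 genes were called (0.044%), 2 higher (0.011%) and 6 lower (0.033%). A looser description, that all 3 null values lay above or all 3 lay below the wild-type values, held for 9.59% and 6.78% of genes, and 6.8% and 3.79% had an unadjusted p under 0.05 above and below. Fitting the 6 arrays alone left 3 called probe sets, all of Prkd2, and leaving out wild-type replicate 3 did the same.

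Prkd2 itself was the largest called difference. Its signal was 10.17, 10.34 and 9.99 in wild-type cells and 6.33, 5.87 and 5.80 in null cells, an 18.0-fold difference (-4.17 ± 0.15 SE, adjusted p = 2.7e-08, limma). The 2 genotypes lay far apart in every mouse. Further probe sets of the gene gave -5.19, -5.14 and -1.04, all called, and the remaining one gave -0.24 with an adjusted p of 0.69. Prkd2 stayed called under each of the 20 alternative settings.

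The paralogs were not called. Prkd3, the other protein kinase D gene with clear signal here, was at 9.37, 9.40 and 9.74 in wild type and 9.34, 9.39 and 9.59 in null cells (-0.06 ± 0.14 SE, adjusted p = 0.95). Prkd1 was near the lower end of the scale on all 6 arrays (3.48 to 3.74; -0.14 ± 0.10 SE, adjusted p = 0.75). The genotypes overlap for both genes.

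**Figure D1:**
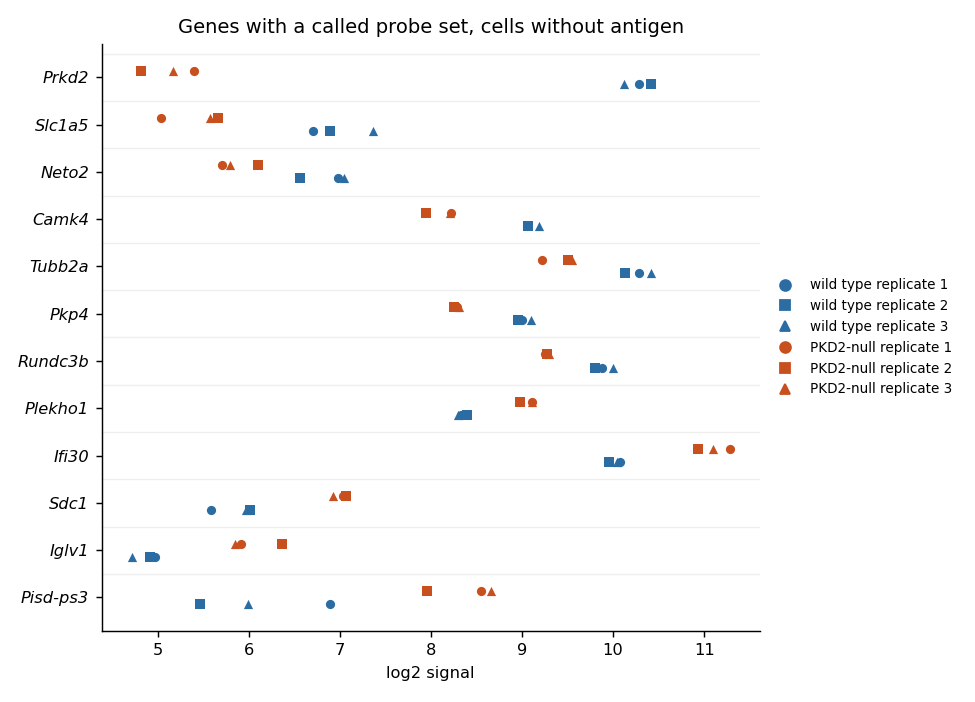
Log2 signal on each of the 6 arrays without antigen for the 12 genes with a called probe set, 1 probe set per gene (that with the smallest p); blue points are wild-type and orange points PKD2-null arrays, with marker shape for the replicate. Blue and orange points do not overlap for any gene shown, and Prkd2 has the widest gap, from about 10 down to about 5.

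Slc1a5, which encodes a glutamine and neutral amino acid transporter (ASCT2), was the second most reduced called gene. It was at 6.70, 6.89 and 7.36 in wild-type cells and 5.04, 5.66 and 5.58 in null cells, 2.95-fold lower (-1.56 ± 0.21 SE, adjusted p = 0.027). A dimmer probe set of the gene read 5.45 to 5.81 in wild type and 5.32 to 5.54 in null cells (-0.21 ± 0.28 SE, adjusted p = 0.89). In the reference gene order Slc1a5 lies 2 places from Prkd2 on chromosome 7, counting genes on the array.

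Because of this position the genes around Prkd2 were read in order. Of the 6 genes within 3 places, 4 had all null values below all wild-type values, against 6.78% of all genes, with a median difference of -0.32. Strn4, the direct neighbour on one side and a striatin family scaffold, was at 8.58, 8.71 and 8.77 in wild type and 8.34, 8.31 and 8.30 in null cells (-0.37 ± 0.09 SE, adjusted p = 0.19). Ptgir, the prostacyclin receptor, was at 6.11, 5.23 and 5.99 against 5.04, 4.62 and 4.99 (-0.89 ± 0.20 SE, adjusted p = 0.16). Gng8 gave -0.22, Dact3 -0.27 and Ap2s1 0.04. Only Slc1a5 of these 6 was called.

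Farther out the pattern was not seen. Among the 34 genes at places 4 to 20, 5 lay above and 1 below without overlap (all genes 9.59% and 6.78%), and the median was 0.02. Of these 34 genes 21 had means below 6 in both genotypes, as had 3 of the 6 nearer genes. A reduction is hard to see at such low signal, so the comparison rests on the remaining genes. The 1 below was Hif3a, a hypoxia-inducible factor subunit 8 places away, at 6.78, 7.59 and 6.93 in wild type and 6.41, 6.40 and 6.22 in null cells (-0.76 ± 0.22 SE, adjusted p = 0.32). Sae1, a subunit of the SUMO-activating enzyme 10 places away on the other side, stood 0.60 higher with an adjusted p of 0.25. The part of the altered locus or of linked strain differences in these values was not tested.

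**Figure D2:**
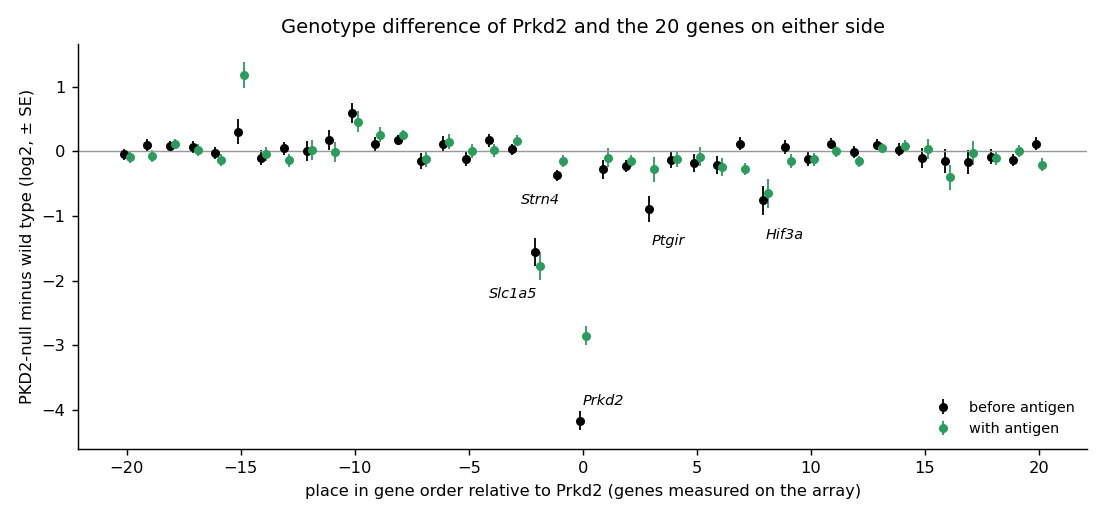
Genotype difference (log2, null minus wild type, with 1 SE) of Prkd2 and the 20 genes on either side in gene order, before antigen in black and with antigen in green. Slc1a5, 2 places away, stands at -1.56 and -1.77 by its brighter probe set, while places 4 to 20 centre on 0.02 before antigen.

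Camk4, Pkp4, Rundc3b, Tubb2a and Neto2 were also called lower. Camk4 encodes a calcium/calmodulin-dependent kinase of T cells; its called probe set was at 9.05, 9.07 and 9.19 in wild type and 8.23, 7.95 and 8.21 in null cells (-0.98 ± 0.11 SE, adjusted p = 0.011). The brightest Camk4 probe set differed by more, from 10.71, 10.80 and 10.80 to 9.77, 8.93 and 9.35, but with a wider spread (-1.42 ± 0.23 SE, adjusted p = 0.063). Other probe sets of the gene gave -1.14, -0.20 and -0.09, none called. Null replicate 2 was the lowest array in the brightest probe set, and it was also the array richest in B cell transcripts.

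Pkp4, a plakophilin of cell junctions, fell from 9.00, 8.95 and 9.10 to 8.29, 8.25 and 8.31 (-0.73 ± 0.08 SE, adjusted p = 0.0065), and its other probe set gave -0.47. Arrays of 1 genotype lay close together for this gene and far from those of the other. Rundc3b, which encodes a RUN domain protein, was at 9.88, 9.81 and 10.00 against 9.25, 9.28 and 9.29 (-0.62 ± 0.08 SE, adjusted p = 0.024). Tubb2a, a beta tubulin, was at 10.28, 10.13 and 10.42 against 9.22, 9.51 and 9.55 (-0.85 ± 0.10 SE, adjusted p = 0.013), on a probe set whose name ending (s_at) marks possible binding to related transcripts. Neto2, which encodes an accessory protein of kainate receptors, was at 6.98, 6.57 and 7.05 against 5.71, 6.10 and 5.80 (-0.995 ± 0.15 SE, adjusted p = 0.049).

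Of 20 amino acid transporters measured, Slc1a5 alone was called, 3 lay apart above and 3 below (all genes 9.59% and 6.78%), and the median was 0.11, or -0.01 without null replicate 2. Slc6a19, a sodium-dependent neutral amino acid transporter, was not called: 8.70, 9.26 and 8.95 in wild type and 7.67, 6.54 and 8.08 in null cells (-1.54 ± 0.36 SE, adjusted p = 0.19), with null replicate 2 lowest. With the B cell marker level as a covariate that difference was -0.48. Slc38a1 and Slc36a4 stood at 0.33 and 0.30, not called. Of 14 tubulins, 2 lay apart above and 2 below with a median of 0.09; Tubb2b stood at -0.46 (adjusted p = 0.37), Tubg1 at 0.23 and Tubg2 at 0.22.

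Ifi30, Plekho1, Sdc1, Iglv1 and Pisd-ps3 were called higher, and several of the products work in antigen presentation or in antibody-forming cells. Ifi30 encodes the lysosomal thiol reductase that opens disulfide bonds of antigens before they are loaded on MHC class II. It was at 10.08, 9.95 and 10.04 in wild-type cells and 11.28, 10.93 and 11.10 in null cells, 2.11-fold higher (1.08 ± 0.12 SE, adjusted p = 0.011). Unlike the B cell markers below, it was not highest in null replicate 2. Plekho1, a pleckstrin homology domain protein, was at 8.33, 8.39 and 8.30 against 9.11, 8.97 and 9.11 (0.72 ± 0.10 SE, adjusted p = 0.024).

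Sdc1 encodes syndecan 1, a surface marker of plasma cells. One of its 4 probe sets was called, at 5.59, 6.02 and 5.97 in wild type and 7.03, 7.07 and 6.93 in null cells (1.15 ± 0.14 SE, adjusted p = 0.012); the brightest gave 1.05 (adjusted p = 0.072) and the others 0.36 and 0.33. Iglv1 is a variable segment of the lambda light chain, and 1 of its 3 probe sets was called, at 4.97, 4.92 and 4.72 against 5.91, 6.37 and 5.84 (1.17 ± 0.14 SE, adjusted p = 0.011). Its brighter probe sets gave 0.683 and 1.097 with an adjusted p of 0.445 each, and both were highest in null replicate 2. These are transcripts of B lineage cells, whose markers are described next.

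The remaining called probe sets concern sequences with close relatives. Pisd-ps3 is a pseudogene of the phosphatidylserine decarboxylase gene, and 2 of its 5 probe sets were called. The larger difference went from 6.89, 5.47 and 5.99 to 8.55, 7.95 and 8.66, 4.82-fold higher (2.27 ± 0.29 SE, adjusted p = 0.019), and the smaller was 1.22. Another gave 1.95 without overlap (adjusted p = 0.070), and the 2 brightest gave 0.52 and 0.34. Signal of related copies cannot be separated. The probe set without a single symbol matches several paired immunoglobulin-like receptor genes, and it was at 5.12, 4.94 and 5.01 against 6.43, 5.97 and 5.69 (1.00 ± 0.15 SE, adjusted p = 0.049).

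B cell markers lay higher in every null array than in any wild-type array. Their mean level over 18 measured markers was 8.96, 8.98 and 8.91 in wild type and 9.38, 9.98 and 9.30 in null cells. All 18 differences were positive, 16 of 18 markers lay apart above, where 9.59% of all genes did, and the median was 0.61, where that of all genes was 0.008. Null replicate 2 was the highest array, and without it 16 of 18 still lay apart (16.3% of all genes) with a median of 0.38. None was called by limma, and 14 of 18 had an unadjusted p under 0.05 on the higher side, against 6.8% of all genes. In a mixed tissue, more cells of a type and more RNA per cell cannot be told apart.

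Single B cell genes show the size of the shift. Ighm, the heavy chain of IgM, was at 12.40, 12.06 and 12.03 in wild type and 12.90, 13.69 and 12.91 in null cells (1.01 ± 0.28 SE, adjusted p = 0.27). Fcrla, an intracellular Fc receptor-like protein of B cells, was at 8.62, 8.99 and 8.89 against 9.64, 10.15 and 9.71 (1.01 ± 0.20 SE, adjusted p = 0.10). Fcer2a, the low-affinity IgE receptor CD23, stood 0.67 higher and Cd37, a tetraspanin, 0.45 higher, both without overlap. In cells of the same mice kept with peptide the median over the list was 0.67.

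MHC class II presentation genes also lay higher in every null array, with replicate 2 highest. Over 13 measured genes the mean was 10.21, 10.18 and 10.11 in wild type and 10.69, 11.09 and 10.62 in null cells. Of the 13, 12 lay apart above (9.59% of all genes), and the median was 0.59. The 1 called member was Ifi30. Lgmn, the lysosomal protease legumain, was at 6.42, 6.39 and 6.48 in wild type and 7.41, 7.79 and 7.21 in null cells (1.04 ± 0.17 SE, adjusted p = 0.061). Ciita, the transactivator that switches on genes of class II chains, was at 5.77, 6.08 and 5.64 against 6.98, 7.31 and 6.57 (1.13 ± 0.24 SE, adjusted p = 0.13). H2-Ob, a chain of the peptide-loading modulator, was at 9.88, 9.88 and 9.61 against 10.16, 10.64 and 10.34 (0.59 ± 0.14 SE, adjusted p = 0.22). Ctss, a lysosomal cysteine protease, was the 1 member with overlap (0.11).

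With the B cell marker level of each array as a covariate, the median difference of the class II genes was 0.05 and that of the B cell markers, from which the covariate is made, -0.05. Ifi30 kept a difference of 1.00 in that fit (adjusted p = 0.058), while H2-Ob was at 0.20 and Lgmn at 0.55 without a call. The covariate left 7 of the 17 called probe sets called, those of Prkd2, Pkp4, Iglv1 and Pisd-ps3. It also brought the total of called probe sets to 70, 31 higher and 39 lower. The B cell level did not overlap between the genotypes, and its spread within null arrays came mostly from replicate 2. This covariate therefore separates poorly from genotype. Whether the B cell level accounts for the other differences was not tested.

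Promoters of the genes for class II chains are read by a factor complex that includes NF-Y, which binds the CCAAT box. The promoter windows of the whole list were therefore searched. The list also holds genes that do not encode class II chains, such as the lysosomal protease gene Lgmn, to which that statement does not extend. The RefSeq windows (GRCm38.p6) of equal length around each gene's start were searched for CCAAT on both strands; 7 of the 11 windows of these genes held it (63.6%), as did 37.4% of all 32851 windows. A pair is printed 5' to 3' in the sense of the gene, as the bases around the match and no farther than the start site, because both genes lay apart here. Capitals mark the match, which is ATTGG on this strand. A match is only a match of letters in this window.
Lgmn, chr12:102439752-102439876, minus strand: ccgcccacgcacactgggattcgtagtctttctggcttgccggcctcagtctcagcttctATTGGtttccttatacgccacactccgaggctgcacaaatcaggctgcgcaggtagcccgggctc
H2-Ob, chr17:34238788-34238904, plus strand: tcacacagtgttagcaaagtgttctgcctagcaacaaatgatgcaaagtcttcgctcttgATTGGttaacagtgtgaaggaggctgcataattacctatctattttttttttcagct

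**Figure D3:**
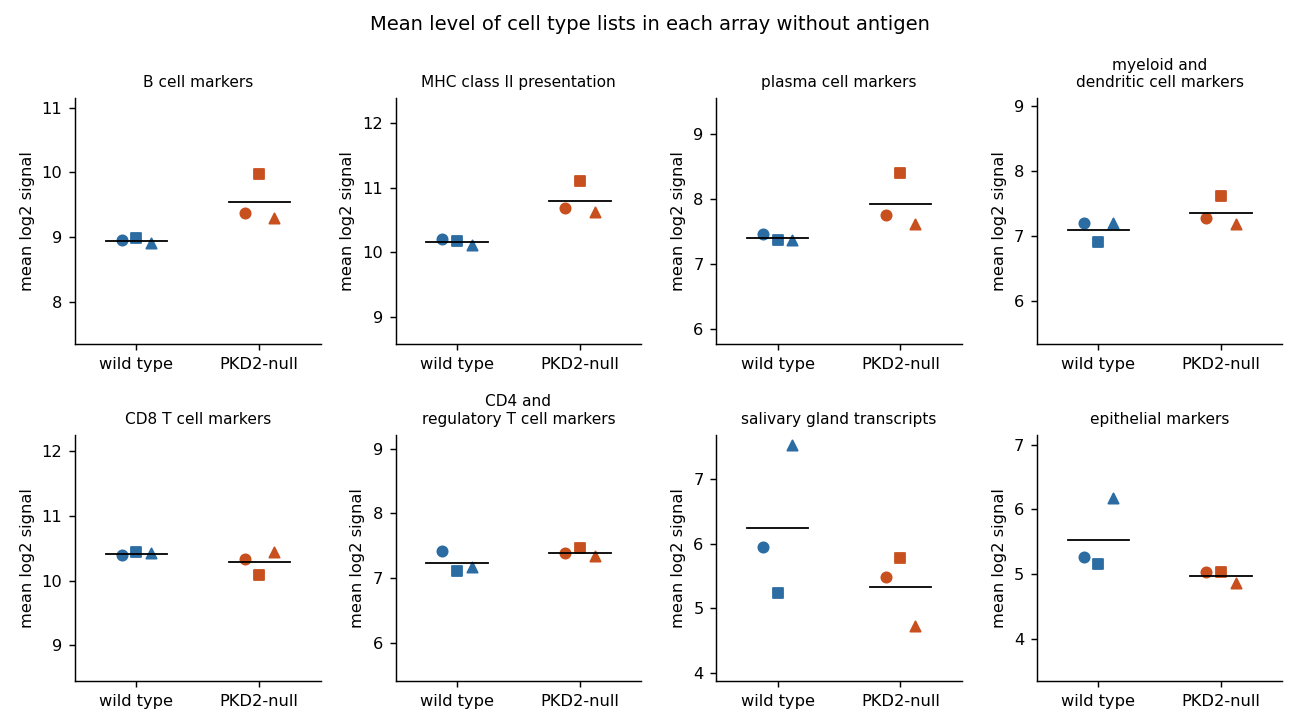
Mean log2 signal of 8 cell type and tissue lists on each array without antigen, wild type left and PKD2-null right, marker shape for the replicate and a line for the mean of 3 arrays; all panels span the same log2 range. B cell and MHC class II levels lie higher in all 3 null arrays with replicate 2 on top, and wild-type replicate 3 has the highest salivary and epithelial level.

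Other cells that carry class II or share the node were less clearly divided. Plasma cell markers had a mean of 7.46, 7.37 and 7.36 in wild type and 7.75, 8.41 and 7.61 in null cells; 3 of 10 lay apart above (9.59% of all genes) and the median was 0.44. Null replicate 2 carried much of that median, which was 0.05 without it and 0.69 without null replicate 3. Beside Sdc1 these were Mzb1 (0.94, adjusted p = 0.34) and Prdm1 (0.78, adjusted p = 0.31), an immunoglobulin chaperone and the plasma cell regulator Blimp-1, whereas Jchain (1.04) overlapped. Myeloid and dendritic cell markers had 2 of 21 apart above and 2 below, and a median of 0.30 that was 0.14 without null replicate 2, 0.19 without wild-type replicate 2 and -0.16 with the B cell covariate. Cst3, cystatin C, stood at 0.47 (adjusted p = 0.20), Flt3 at 0.45, Tyrobp at 0.40 and Cd14 at 0.77. Only Cst3 of these 4 lay apart. Neutrophil markers gave 1 of 8 apart on either side, and their median of 0.17 ran from 0.10 to 0.32 with single arrays left out; S100a8 was at 5.89, 5.43 and 6.25 against 6.71, 7.75 and 6.09 (0.99 ± 0.44 SE, adjusted p = 0.55), S100a9 gave 1.00, Cxcr2 -0.16 and Ltf -0.17.

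The list of CD8 T cell markers holds Cd8a and Cd8b1, but most of its members are general T cell genes such as Cd3d, Cd5 and Cd6. It therefore does not measure CD8 T cells alone. Its mean was 10.39, 10.43 and 10.42 in wild type and 10.34, 10.09 and 10.44 in null cells, where replicate 2 was the lowest. None of 9 lay apart above and 2 lay below (all genes 9.59% and 6.78%), with a median of -0.18. Without null replicate 2 the median was 0.03, with 2 of 9 above and 2 below (all genes 16.3% and 13.2%), so its sign rests on that array. The signalling regulators Cd6 (-0.27) and Cd5 (-0.25) were those 2; Trat1 gave -0.22 and Cd8a -0.18, and 0 were called. With the B cell level as a covariate the median was 0.16.

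Markers of CD4 and regulatory T cells went both ways: 3 of 12 lay apart above and 2 below (all genes 9.59% and 6.78%), and the median was 0.02. Izumo1r, a folate receptor family protein found on regulatory and anergic CD4 T cells, was at 6.49, 6.15 and 6.56 in wild type and 8.01, 7.61 and 7.67 in null cells, 2.57-fold higher by the fit (1.36 ± 0.21 SE, adjusted p = 0.059), just short of a call. With antigen the same gene differed by 1.23 and was called (adjusted p = 0.020). Foxp3, the transcription factor of regulatory T cells, was at 4.99, 4.50 and 4.70 against 5.30, 5.35 and 5.16 (0.54 ± 0.20 SE, adjusted p = 0.45). Ctla4 stood at 0.51 with overlap. Tnfrsf18, which encodes GITR, went the other way, at 11.17, 10.98 and 11.00 against 10.38, 10.84 and 10.31 (-0.54 ± 0.16 SE, adjusted p = 0.34).

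Klrd1 encodes the CD94 chain of lectin-like receptors on NK and CD8 T cells. Its signal was 12.04, 12.13 and 11.61 in wild type and 11.01, 11.15 and 10.62 in null cells, with no overlap (-1.0002 ± 0.17 SE, adjusted p = 0.063). With antigen it was called (-0.92, adjusted p = 0.027), and so it was before antigen with the B cell level as a covariate (-1.33, adjusted p = 0.026). The NK and innate lymphoid list as a whole had 0 of 12 apart above and 3 below (all genes 9.59% and 6.78%). Its median of -0.10 was -0.21 without null replicate 2 and 0.0009 without null replicate 3. Il7r gave -0.29, Gata3 -0.22 and the cytotoxic pore gene Prf1 0.28.

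Salivary gland transcripts were present in these lymph node suspensions at levels that differed widely between mice. Over 24 measured transcripts the mean was 5.94, 5.23 and 7.53 in wild type and 5.49, 5.77 and 4.73 in null cells, and these ranges overlap. None lay apart above, 7 of 24 lay below, against 6.78% of all genes, and the median was -0.29. It was 0.06 without wild-type replicate 3 and -0.11 without null replicate 3, so the median rests on those arrays.

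The list did not vary as one. Dcpp3, a demilune cell and parotid protein, was at 12.13, 12.54 and 14.33 in wild type and 6.56, 8.61 and 6.23 in null cells, the largest lower difference of all 18193 genes (-5.87 ± 0.93 SE, 58.3-fold, adjusted p = 0.059). It was -5.20 without wild-type replicate 3 and was called with antigen (-6.15, adjusted p = 0.011). Scgb2b27, a secretoglobin, was at 6.57, 7.70 and 11.63 against 3.23, 4.06 and 3.27 (-5.12 ± 1.35 SE, adjusted p = 0.25). Wfdc12, a WAP domain protease inhibitor, gave -2.06 and the salivary peroxidase gene Lpo -0.28, and both lay apart. The probe set of Dcpp3 has a name ending (x_at) that marks possible binding to related transcripts.

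Other gland transcripts followed single arrays rather than genotype; they were picked out after their values were seen. Mucl2 and Prol1 were high only in wild-type replicate 3, at 11.88 and 10.38, and between 2.93 and 3.63 on the other arrays. Amy1, the salivary amylase, was at 8.35, 3.14 and 6.86 in wild type and 8.36, 8.49 and 4.44 in null cells. Bpifa2, a parotid secretory protein, was at 11.10, 8.67 and 12.88 against 11.17, 11.62 and 8.02. Both were lowest on the 2 arrays with Y-linked signal, as were Car6, Dnase1, Pip and Cst10.

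Epithelial genes repeated part of this. Krt18 and Krt8, the keratin pair of simple epithelia, were at 6.77, 6.50 and 10.13 against 4.77, 4.89 and 4.18 (-3.19, adjusted p = 0.40) and at 6.94, 6.42 and 9.96 against 5.47, 4.97 and 4.55 (-2.78, adjusted p = 0.44). Without wild-type replicate 3 these were -2.02 and -1.68. Over 18 epithelial markers 0 lay apart above and 3 below (all genes 9.59% and 6.78%), with a median of -0.14. Cdh1, E-cadherin, was at 3.76, 3.89 and 6.98 against 3.65, 3.34 and 3.27, and Elf3 gave -0.32 with overlap. The defining marker Epcam did not separate the genotypes, at 6.92, 7.22 and 8.29 against 7.61, 7.69 and 6.96. Whether attached gland tissue accounts for the genotype difference of Dcpp3 was not tested. The salivary level as a covariate left it at -4.63 with an adjusted p of 0.033 (limma). That covariate is a mean that includes Dcpp3 itself, so the fit cannot answer the question.

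**Figure D4:**
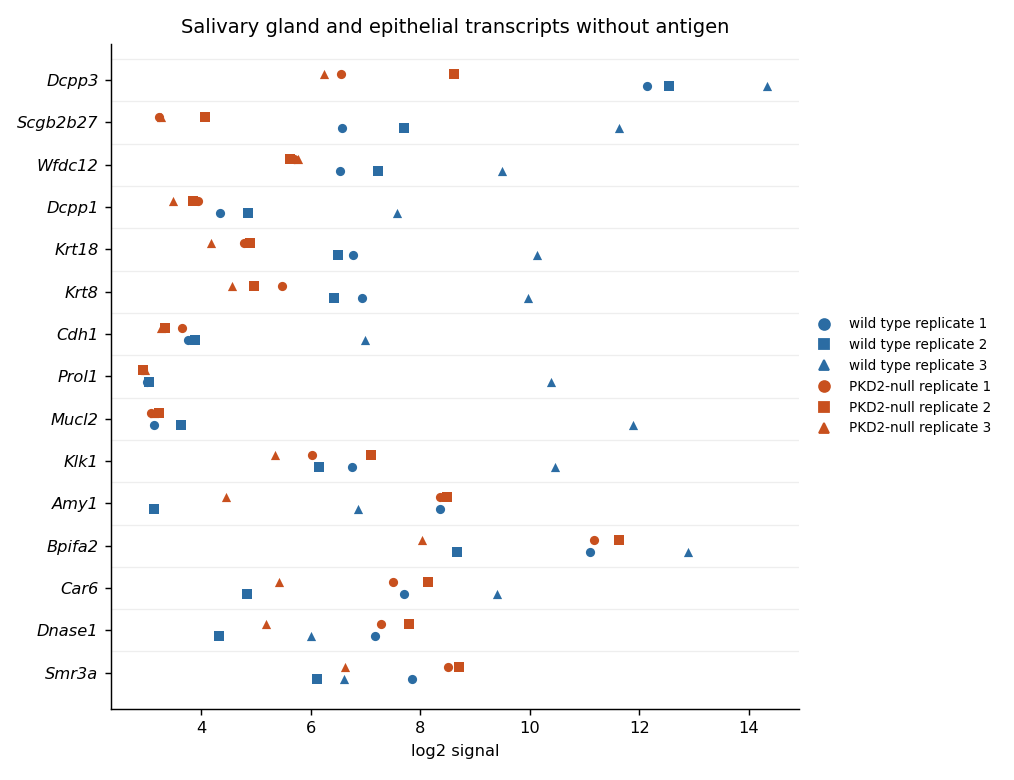
Log2 signal on each array without antigen for 15 salivary gland and epithelial transcripts, wild type in blue and PKD2-null in orange, with marker shape for the replicate. Dcpp3 and Scgb2b27 separate the genotypes, Mucl2 and Prol1 are high on 1 wild-type array, and Amy1 and Dnase1 are low on wild-type replicate 2 and null replicate 3.

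Among the 12 largest lower differences without overlap, 10 had their highest signal in wild-type replicate 3: Dcpp3, Scgb2b27, A2ml1, Wfdc18, Krt18, Krt8, Scgb1b27, Nupr1, Wfdc12 and Pgpep1l. The others were Prkd2 and Alas2. A2ml1, an alpha-macroglobulin family protease inhibitor, was at 6.83, 8.03 and 10.73 against 3.67, 3.36 and 4.18 (-4.79 ± 1.07 SE, adjusted p = 0.16). Wfdc18 gave -3.52, Scgb1b27 -2.19 and Nupr1, a stress-induced nuclear protein, -2.11, each with wild-type replicate 3 highest. That array was also the highest for salivary transcripts as a whole.

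Alas2 did not follow that array. The gene, which encodes the first enzyme of haem synthesis in red cell precursors, was at 7.45, 9.58 and 6.39 in wild type and 4.90, 5.43 and 4.64 in null cells (-2.82 ± 0.73 SE, adjusted p = 0.25), with wild-type replicate 2 highest. It was the 1 of 4 erythroid markers that lay apart (all genes 9.59% above and 6.78% below), since Hba-a1 (-0.08), Slc4a1 (-0.20) and Epb42 (-0.22) overlapped. Pgpep1l, a pyroglutamyl peptidase relative, was at 6.33, 6.20 and 6.49 against 5.26, 5.02 and 3.84 (-1.63 ± 0.29 SE, adjusted p = 0.070). Of stromal and endothelial markers 1 of 14 lay apart above, Vim, an intermediate filament gene that lymphocytes also express, at 11.16, 10.90 and 11.05 against 11.65, 11.71 and 11.52 (0.59 ± 0.10 SE, adjusted p = 0.065). Pecam1 gave 0.22, Pdgfra -0.16 and Col1a2 -0.22, and the list's median was -0.04.

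Cell cycle genes made up 9 of the 12 largest higher differences without overlap. Over 29 genes the mean was 7.25, 7.12 and 7.11 in wild type and 7.597, 7.89 and 7.49 in null cells; 15 of 29 lay apart above against 9.59% of all genes, 0 below, and the median was 0.25. Mki67, the proliferation antigen Ki-67, was at 6.87, 6.52 and 6.32 against 7.64, 8.38 and 7.52 (1.28 ± 0.31 SE, adjusted p = 0.20). Top2a, the topoisomerase of dividing cells, was at 7.24, 6.78 and 6.56 against 8.05, 8.63 and 7.67 (1.26 ± 0.28 SE, adjusted p = 0.16). Birc5, survivin, was at 5.54, 4.58 and 4.76 against 6.56, 7.12 and 5.90 (1.57 ± 0.37 SE, adjusted p = 0.19), and Ccnb2, a mitotic cyclin, stood 1.35 higher. Null replicate 2 was the highest array for all 4. With limma 0 of 29 genes were called, and 15 had an unadjusted p under 0.05 on the higher side, against 6.8% of all genes.

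Most of the largest values belonged to genes of mitosis. Ube2c (1.49), Pclaf (1.35), Nusap1 (1.31), Ccna2 (1.31) and Cep55 (1.26) were also among the 12 largest, whereas the replication helicase genes were near 0: Mcm2 gave 0.05, Mcm4 -0.05 and Mcm5 0.12, the Mcm genes being picked out after their values were seen. Without null replicate 2 the list's median was 0.29, with 16 of 29 apart (16.3% of all genes). With the B cell level as a covariate it was 0.13, and Mki67 and Top2a stood at 0.45 and 0.44. Which cells carried these transcripts was not measured.

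Many mitotic promoters hold the cell cycle homology element TTTGAA. It was found, on either strand, in 8 of 27 windows of these genes (29.6%) and in 17.9% of all windows. A pair is printed as above for genes among the largest differences, with the match in capitals (read as TTCAAA in Top2a).
Top2a, chr11:99024190-99024272, minus strand: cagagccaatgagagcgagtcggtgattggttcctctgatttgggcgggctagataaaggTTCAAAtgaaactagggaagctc
Ccnb2, chr9:70421656-70421781, minus strand: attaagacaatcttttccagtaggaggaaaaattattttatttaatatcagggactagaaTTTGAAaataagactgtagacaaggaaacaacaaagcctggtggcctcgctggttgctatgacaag

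Slc15a2 and Hepacam2 completed the 12 largest higher differences with Izumo1r. Slc15a2, the high-affinity peptide transporter PEPT2, was at 4.57, 6.20 and 4.65 in wild type and 7.71, 10.65 and 9.04 in null cells, the largest higher difference of all 18193 genes (4.00 ± 0.84 SE, 15.9-fold, adjusted p = 0.13). The spread was wide in both genotypes, and the difference was 3.24 without null replicate 2 and 1.67 with the B cell level as a covariate. Hepacam2, an immunoglobulin superfamily adhesion protein, was at 6.05, 5.13 and 6.07 against 7.55, 8.42 and 6.90 (1.87 ± 0.45 SE, adjusted p = 0.20).

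Cholesterol synthesis genes lay higher, with and without the B cell level as a covariate. Over 17 genes the mean was 7.64, 7.47 and 7.67 in wild type and 8.03, 8.02 and 7.86 in null cells. All 17 differences were positive, 10 of 17 lay apart above (9.59% of all genes), and the median was 0.38. With the B cell level as a covariate the median was 0.51, and it was 0.39 without null replicate 2. Msmo1, a sterol methyl oxidase, was at 8.01, 7.73 and 7.81 against 8.51, 8.56 and 8.31 (0.61 ± 0.18 SE, adjusted p = 0.30), and Hsd17b7 stood at 0.50. Idi1, an isomerase early in the pathway, gave 0.53 and Stard4, a sterol transporter, 0.43. With limma 0 of 17 were called, and 11 had an unadjusted p under 0.05 on the higher side, against 6.8% of all genes. The sterol response core CACNCCA was found on either strand in 4 of 15 windows of these genes (26.7%) and in 18.4% of all windows.

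Ribosome biogenesis genes had 7 of 23 apart above and 0 below (all genes 9.59% and 6.78%) with a median of 0.21, led by Rrp1b (0.43, adjusted p = 0.23) and Utp20 (0.41), with Ebna1bp2 and Pes1 at 0.26. The median was 0.11 without null replicate 2, 0.13 with the B cell covariate and -0.11 with antigen. Glycolysis genes had 3 of 14 apart above and a median of 0.08 that was -0.01 without null replicate 2; Pkm, pyruvate kinase, stood at 0.26, Tpi1 at 0.39, Pgam1 at 0.16 and the lactate transporter gene Slc16a1 at -0.25.

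Of 19 homing and egress receptors 7 lay apart above and 0 below (all genes 9.59% and 6.78%). By limma 0 were called, and 6 had an unadjusted p under 0.05 on the higher side, against 6.8% of all genes. The median was 0.21, or 0.25 with the B cell level as a covariate. Itgb2, the beta chain of LFA-1, was at 10.10, 9.99 and 10.09 in wild type and 10.68, 10.61 and 10.58 in null cells (0.56 ± 0.10 SE, adjusted p = 0.070). Itga6, an integrin chain, was at 8.56, 8.87 and 8.96 against 9.73, 9.38 and 9.64 (0.78 ± 0.18 SE, adjusted p = 0.18). Gpr183, the oxysterol receptor that positions lymphocytes, stood 0.54 higher (adjusted p = 0.13), and Cxcr5, the follicle-homing receptor of B cells, 0.81 higher (adjusted p = 0.40). Null replicate 2 was highest for Gpr183 and Cxcr5 and not for the integrins, and with the B cell covariate Cxcr5 was at 0.00 and Itga6 at 0.94.

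**Figure D5:**
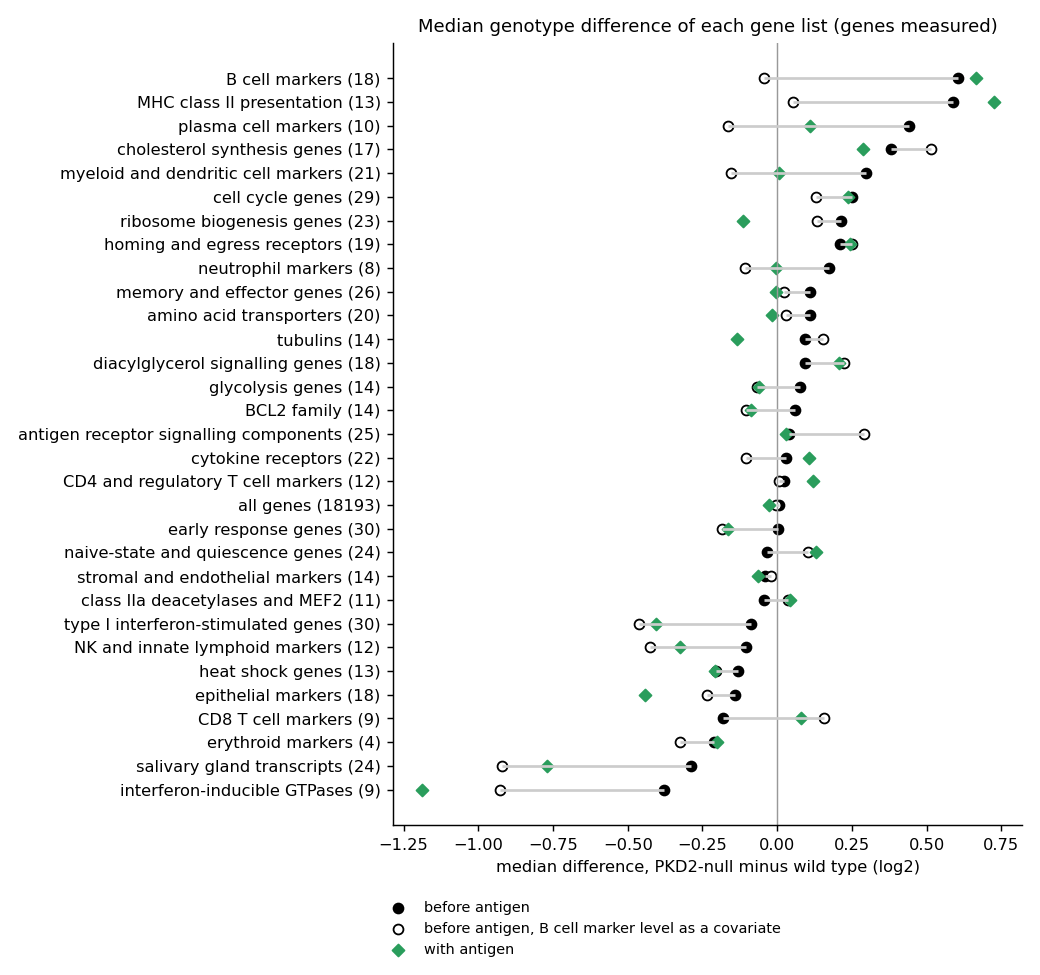
Median genotype difference (log2, null minus wild type) of each gene list and of all genes, with the number measured in brackets: before antigen (filled), before antigen with the B cell marker level as a covariate (open) and with antigen (green). B cell and MHC class II medians of 0.61 and 0.59 go to about 0 with the covariate, and the cholesterol synthesis median goes from 0.38 to 0.51. The covariate is made from the B cell markers, so their own move to about 0 is built in. It also separates poorly from genotype.

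Naive-state and quiescence genes had 2 of 24 apart above and 4 below (all genes 9.59% and 6.78%). Their median was -0.03, or 0.04 without null replicate 2. Dapl1, a marker of naive CD8 T cells, was at 9.31, 9.94 and 9.82 against 8.84, 9.24 and 8.80 (-0.73 ± 0.24 SE, adjusted p = 0.39). Igfbp4 gave -0.30, the chromatin organiser Satb1 -0.22 and the antiproliferative Tob1 -0.30. Memory and effector genes had 6 of 26 apart above and 1 below with a median of 0.11 that was 0.23 without null replicate 1 and 0.02 with the B cell covariate. S100a4, a calcium-binding protein of memory cells, stood at 0.80 (adjusted p = 0.22), S100a6 at 0.55, the galectin gene Lgals1 at 0.47 and the regulator Id2 at 0.50.

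Components through which the antigen receptor reaches PKD2 were read next. Of 25 antigen receptor signalling genes 3 lay apart above and 3 below (all genes 9.59% and 6.78%), and the median was 0.04. It was 0.16 without null replicate 2, -0.02 without null replicate 3 and 0.29 with the B cell covariate. Fyn, a proximal kinase, stood at 0.31, Csk, which restrains it, at 0.29, and the phosphatase Ptpn6 at 0.44; Ubash3a, a negative regulator, was at 8.48, 8.43 and 8.07 against 7.98, 7.87 and 7.89 (-0.41 ± 0.12 SE, adjusted p = 0.33). With limma 0 of 25 were called, and 5 had an unadjusted p under 0.05, against 10.6% of all genes in either direction.

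Among diacylglycerol signalling genes 4 of 18 lay apart above and 2 below (all genes 9.59% and 6.78%). Their median of 0.09 was 0.17 without null replicate 2, 0.03 without null replicate 3 and 0.22 with the B cell covariate. Prkca, a conventional protein kinase C, was at 10.28, 10.30 and 10.34 in wild type and 9.63, 9.68 and 9.81 in null cells (-0.60 ± 0.12 SE, adjusted p = 0.098). Prkcb, the isoform prominent in B cells, was at 9.51, 9.62 and 9.45 against 9.85, 10.05 and 9.89 (0.40 ± 0.10 SE, adjusted p = 0.23). Plcg2, the phospholipase of B cells, stood 0.66 higher and 0.11 with the B cell covariate, and Prkcz 0.43. Prkca stood at -0.67 with that covariate.

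Class IIa deacetylases, which protein kinase D enzymes are known to phosphorylate, and MEF2 factors, which those deacetylases repress, were read together. Of 11 genes 1 lay apart above and 1 below (all genes 9.59% and 6.78%), and the median was -0.04. Mef2c, a MEF2 factor of B cells, was at 9.53, 9.18 and 9.45 against 9.73, 10.38 and 9.74 (0.56, adjusted p = 0.50) and Mef2b stood at 0.69. Hdac4 gave -0.37 and Hdac9 -0.21. Hdac7, the member most studied in T cells and named here after its values were seen, gave -0.04 with an adjusted p of 0.96.

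Early response genes, which antigen receptor signals switch on, were measured to see whether cells differed before peptide. Of 30 genes 5 lay apart above and 1 below (all genes 9.59% and 6.78%). The median of 0.00 ran from -0.10 to 0.09 with single arrays left out. Egr1 was at 9.59, 9.16 and 9.55 in wild type and 10.48, 10.03 and 10.58 in null cells (0.93 ± 0.19 SE, adjusted p = 0.11), and with the B cell level as a covariate it was called (1.45, adjusted p = 0.0057). Egr2, of the same zinc finger family, stood at 0.62 and the costimulator gene Icos at 0.59; Fosl2, an AP-1 subunit, was at 10.09, 9.48 and 9.69 against 9.01, 9.58 and 9.05 (-0.54, adjusted p = 0.36).

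The cytokine genes Il2 and Ifng were low in both genotypes, as their signals show. Il2 was at 4.203, 3.87 and 3.57 in wild type and 4.03, 3.95 and 4.14 in null cells (0.16, adjusted p = 0.87). Ifng was at 5.10, 4.18 and 4.25 against 4.71, 5.21 and 4.59 (0.33, adjusted p = 0.90). Cytokine receptors had 1 of 22 apart on either side (all genes 9.59% above and 6.78% below) and a median of 0.03. Ifnar1 was at -0.17, Tgfbr1 at 0.17, Il6st at 0.27 and Il10ra at 0.33. BCL2 family genes had 0 of 14 apart above and 1 below, with Bid at 0.45, Bcl2 at 0.43, Bak1 at 0.21 and Bcl2l11, which encodes the death mediator BIM, at -0.36.

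Interferon-linked genes had medians below 0 whose size, or for the type I list sign, depended on single arrays. All 9 interferon-inducible GTPases had negative differences, with a median of -0.38, but 0 lay apart (all genes 9.59% above and 6.78% below). The median was -0.18 without wild-type replicate 2, -0.20 without wild-type replicate 1 and -0.21 without null replicate 3. Without wild-type replicate 3 it was -0.53. It was -0.93 with the B cell covariate and -1.19 with antigen, where 6 of 9 lay apart below (12.8% of all genes). Iigp1 was at 7.19, 6.40 and 4.79 in wild type and 4.86, 5.67 and 4.19 in null cells (-1.22 ± 0.66 SE, adjusted p = 0.645), Gbp2 gave -0.50, Gbp3 -0.38 and Gbp8 -0.30. Of 30 type I interferon-stimulated genes 3 lay apart below and 0 above, with a median of -0.09. That median was 0.02 without wild-type replicate 1, also 0.02 without null replicate 3, and -0.46 with the B cell covariate. Xaf1 was at 8.20, 7.98 and 8.06 against 7.04, 7.37 and 7.41 (-0.80 ± 0.16 SE, adjusted p = 0.12), and with antigen it was called (-1.45, adjusted p = 0.0024). Rsad2, viperin, gave -1.002, Isg20, a ribonuclease, -0.66 and Oas3 -0.19. Heat shock genes had 0 of 13 apart above and 4 below with a median of -0.13 that was -0.06 without null replicate 1 or null replicate 3: Dnajb1 gave -0.22, Dnaja1 -0.20, Hspa8 -0.23 and Hspa1b -0.82.

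The values with antigen, from cells of the same mice and so no independent set of animals, were set beside those before it. Of the 17 called probe sets 17 went the same way with antigen, 16 without overlap (9.42% of all probe sets lay above and 11% below), and 13 were called, in a comparison where 1.18% of probe sets were (1.64% of genes, 1.09% higher). The exceptions were Ifi30 (0.43, adjusted p = 0.12), Neto2 (-0.45, adjusted p = 0.17), Rundc3b (-0.09, adjusted p = 0.66) and the Prkd2 probe set with the smallest called difference (-0.64, adjusted p = 0.051). Slc1a5 stood at -1.77 and Plekho1 at 0.91 with antigen. The difference between the genotype differences was called for 1 of 45037 probe sets (0.00222%), which is none of the 17.

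The largest differences held to a varying degree. All 12 of the largest lower genes went the same way with antigen without overlap (12.8% of all genes lay below), and 4 were called: Prkd2, Dcpp3, Scgb2b27 and A2ml1. The 12 largest higher genes also went the same way, with 3 apart (10.9% of all genes lay above) and 1 called, Izumo1r. Mki67 and Top2a stood at 0.72 and 0.64 with antigen, with overlapping values. Slc15a2 stood at 3.64 (adjusted p = 0.064).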

How the data were processed

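The deposited values are log2 signals, in 1 table of 12 arrays, made by the authors with Affymetrix Expression Console 1.1, per the submitters' processing notes. The sources used here do not name a normalization method, and no further scaling was applied. After 64 control probe sets were left out, 45037 remained, of which 34945 had 1 gene symbol, 932 several and 9160 none; for each of 18193 genes the probe set of greatest mean signal across the 12 arrays was taken.

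A mean for each of the 4 groups was fitted over all 12 arrays in limma 3.58.1 under R 4.3.3 (residual degrees of freedom 8, prior 4.18), and null minus wild-type unstimulated was tested two-sided. Lists are described by counts and medians, with no test of a list. The covariates for the B cell, salivary and Y-linked levels are means of the listed genes on each array. The members and lists were chosen with earlier results of these data known.

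Genes named by rule are Prkd1 to Prkd3, the cytokines Il2 and Ifng, every called gene, the 12 largest differences each way without overlap whose mean was above 6 in a group, up to 4 members of each list with the smallest p, and neighbours of Prkd2 (up to 20 each side). Other names (Cd3d, Cd8b1, Ctss, Epcam, Amy1, Bpifa2, Mucl2, Prol1, Car6, Dnase1, Pip, Cst10, Hdac7 and the Mcm genes) were picked after their values were seen. Gene order comes from a RefSeq gene table, promoters from RefSeq (GRCm38.p6). Same-numbered wild-type and null arrays come from different mice, and the deviations of such arrays from their group means correlated at -0.01, -0.29 and -0.21, so the numbers were not used as pairs. A fit of the same form was tested on simulated data for the main comparison, with all arrays drawn independently. The alternative settings were not tested in this way.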

Additional observations from a re-analysis of the deposited data

How the results depend on the processing

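The count of 17 called probe sets differed between settings. It was 3 in the 6 arrays alone, 57 with an intensity trend and robust prior, 32 after quantile normalization, 44 with the mouse as a random block, and 55 with 1 probe set per gene. It was 70 with the B cell level as a covariate, and, with covariates added after the data were seen, 41 with the Y-linked level and 34 with the B cell and salivary levels together. Leaving out single arrays gave 3 to 27: wild-type replicate 3 gave 3, null replicate 1 gave 6, null replicate 3 gave 11 and null replicate 2 gave 27. With the replicate number as a block over the 6 arrays it was 4 (1 higher, 3 lower), but the numbers do not pair the mice. All 12 called genes kept a called probe set with the trend, quantile, random-block and Y-linked settings; with the B cell and salivary levels together 2 did, Prkd2 and Pisd-ps3.

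The B cell median of 0.61 was -0.0454 with its own level as a covariate and -0.0145 with the salivary level added, and ran from 0.38 to 0.72 when single arrays were left out. The salivary median of -0.29 ran from -0.53 to 0.06 when single arrays were left out, and was -0.92 with the B cell level as a covariate, 0.07 with its own level and 0.17 with both. Of 39 named genes only 8 were called by their brightest probe set, so only values of those 8 could lose a call. Of 779 values of the 39 genes under alternatives 684 kept direction and status, called or not called, 59 lost a call, 26 gained one and 10 turned sign. Those were Prkd3 (0.19 with the B cell covariate, 0.35 with both, and -0.134 to 0.0601 with single arrays left out, the highest without wild-type replicate 3), Il2 (-0.0552 and -0.136 with the B cell and with both covariates), Ifng (-0.85 and -0.79), the brightest Iglv1 probe set (-0.0370 and -0.202) and Scgb1b27 (0.10 with both). The causes were not tested. Beside Prkd2, called in 20 of 20, the brightest probe set was called in 16 alternatives for Pkp4, 14 for Ifi30, 12 for Tubb2a, 10 for Neto2, Plekho1 and Rundc3b, and 9 for Slc1a5.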
